A study of Mus musculus with 20 samples.

Results

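Control amacrine cells at 2 stated ages, postnatal day 2 (P2) and postnatal day 5 (P5), are described here: the cells that the authors named amacrine in explants that received the GFP control construct. They number 9516 of the 79009 cells deposited, 8252 at P2 and 1264 at P5, and come from 4 control libraries at each age. All were taken by the authors' cell type name, age and library, and their counts of unique molecular identifiers (UMIs, 1 per captured RNA molecule) were summed per library. The tissue was retina of CD1 wildtype mice kept as explants and electroporated with a GFP plasmid. GFP-positive cells were isolated and run as 10x 3′ libraries. The other 12 libraries received MEIS1, MEIS2 or a combination of both, with 2 libraries for each construct and age. They stay out of the comparison and serve below as further libraries in which the age difference was measured. The series design text gives 2 or 5 days of treatment where the sample labels give an age, and names NR2F1 and NR2F2 where the labels name MEIS1 and MEIS2. Age is therefore the label's word here, and days since electroporation cannot be told apart from it.

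Amacrine cells are the inhibitory interneurons of the inner retina. They release GABA or glycine, often with a peptide or a second transmitter, and their processes divide the inner plexiform layer into sublayers. Ptf1a, Prdm13 and Foxn4 act when the fate is chosen, Tfap2a, Tfap2b and Pax6 mark the cells afterwards, and factors such as Ebf1, Ebf3, Nfix, Lhx9 and Meis2 are kept by some subtypes only. In the first postnatal week amacrine cells settle in their layer, extend neurites and begin to build synapses.

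The libraries differ in ways that bear on every value below. Amacrine cells per library numbered 6115, 804, 950 and 383 in P2 controls 1 to 4, and 866, 155, 155 and 88 in P5 controls 1 to 4. They held from 1025048 UMIs in P5 control 4 to 50317436 in P2 control 1, so that 1 UMI is worth from 0.0196 to 0.927 CPM, the counts of a gene scaled to a fixed library total. Median UMIs per amacrine cell ran from 2778 in P2 control 2 to 12441 in P5 control 4. Cell barcodes of P2 control 1 begin with the name of a combination library, those of the other 7 control libraries begin with another control's number, and the titles were followed. Controls 1 and 2 stood apart from controls 3 and 4 at both ages. Amacrine cells of P5 control 1 had 14.6 percent mitochondrial UMIs, where the remaining 7 libraries had 2.17 to 6.95 percent. Rod marker RNA, summed over 18 genes, reached 3508 CPM in the amacrine cells of P5 control 1, against 931 to 1339 CPM at P2 and 1129 to 1641 CPM in the other P5 libraries. Counting amacrine cells only, 5 barcodes occur in more than 1 control library. When all cell types of the other control libraries are counted, 55, 6, 10 and 8 amacrine cells of P2 controls 1 to 4 share a barcode. In P5 controls 1 to 4 the numbers are 12, 1, 4 and 1. Every deposited cell has at least 1 GFP UMI, and 43.7 percent of amacrine cells in P2 control 2 have exactly 1, against 1.78 percent in P2 control 1.

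Pax6, Tfap2b and Slc32a1 set the amacrine label apart from rods, but Slc6a9 did so in some libraries only. With cells cut to an equal number of UMIs, its share of cells with a UMI is given by library below. That share was lower in amacrine cells than in rods in P2 controls 1 to 3 and in P5 control 2. It was higher in P2 control 4 and in P5 controls 1, 3 and 4. Pax6 stood at 970 ± 203 CPM at P2 and 716 ± 127 CPM at P5 (SD, n = 4), and Tfap2b at 561 ± 223 and 414 ± 73.8 CPM. In rods of the same libraries Pax6 was at 48.4 and 14.6 CPM, and Tfap2b at 21.5 and 10.4 CPM. Slc32a1, the vesicular transporter of GABA and glycine, was at 70.1 ± 23.9 and 93.8 ± 36.9 CPM in amacrine cells and at 1.79 and 1.98 CPM in rods. Ptf1a, which is on only in newly born amacrine cells, was at 101, 132, 291 and 305 CPM in P2 controls 1 to 4 and at 1.23, 0, 231 and 15.8 CPM in P5 controls 1 to 4. P5 control 3 thus had a Ptf1a level inside the P2 range, while the other 3 P5 libraries were far under it. The authors' clusters show the same library apart: their cluster 13 held 51.0 percent of its amacrine cells, against 7.16 to 9.09 percent in the other P5 libraries and 11.1 to 28.5 percent at P2. Their cluster 6 was the most filled cluster in all 4 P2 libraries, in P5 control 2 with 40.65 percent and in P5 control 4 with 71.6 percent of cells, while cluster 7 led P5 control 1.

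Amacrine cells made up 34.5, 17.1, 18.1 and 9.53 percent of all cells in P2 controls 1 to 4, and 13.8, 3.92, 2.71 and 4.49 percent in P5 controls 1 to 4. The means were 19.8 ± 10.51 percent at P2 and 6.22 ± 5.08 percent at P5 (SD, n = 4 libraries each). P5 control 1 lay above P2 control 4, so the ranges overlapped, and the two-sided exact permutation test, which takes no account of the control number, gave p = 0.0571, also after adjustment over the 3 shares tested. Without P2 control 1 the difference of -13.6 points was -8.66 points (exact permutation p = 0.114). Within each of the 4 same-numbered pairs, a pairing that the labels do not state, the P5 share was the lower one. These are shares of isolated GFP-positive cells, so the number of amacrine cells and the number of other cells cannot be told apart.

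Few genes passed the test of P5 against P2. With edgeR's quasi-likelihood test over 11683 genes, 6 genes rose and 1 fell at a Benjamini-Hochberg adjusted p under 0.05, which is 0.0514 and 0.00856 percent of the genes tested, and 858 had an unadjusted p under 0.05. The 6 that rose were Nwd2, Mgll, Kcnh1, Alk, Lgr5 and Slc2a13, and the gene that fell was Idi1. The labels state no pairing of libraries across the ages. Same-numbered libraries had positively correlated deviations, but P5 controls 1, 3 and 4 each correlated more with a P2 library of another number. With the control number as a block, the same test called 122 genes higher (1.04 percent) and 29 lower (0.248 percent). DESeq2 called 134 higher and 39 lower. All 7 genes were also among the calls of both. The labels do not say that libraries are separate animals, so p-values measure the spread between these libraries. In summed counts, fewer cells of a kind and less RNA per cell cannot be told apart. The count moved with single libraries: leaving out P2 control 1, P2 control 3 or P5 control 2 left 0 calls, leaving out P2 control 2 or P5 control 4 left 2, leaving out P5 control 1 gave 18 and leaving out P5 control 3 gave 121. Controls 3 and 4 alone gave 0 calls, while 1165 genes had an unadjusted p under 0.05, whereas controls 1 and 2 alone gave 328.

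Mgll, monoacylglycerol lipase, which breaks down the endocannabinoid 2-arachidonoylglycerol, stood at 2.97, 5.6, 1.92 and 4.52 CPM in P2 controls 1 to 4 and at 50.3, 82.3, 32.4 and 88.1 CPM in P5 controls 1 to 4. All 4 P5 libraries were above all 4 P2 libraries, and the log2 fold change was 4.11 ± 0.431 (SE), with an edgeR adjusted p of 0.0103. The gene lies on chromosome 6 from 88724412 to 88828360 (mm10, GENCODE vM21). Lgr5, a receptor for R-spondins known as a stem cell marker in gut and present in amacrine cells, was at 16.9, 9.44, 10.9 and 45.8 CPM at P2 and at 297, 328, 276 and 501 CPM at P5. The groups did not overlap, and Lgr5 rose by 4.08 ± 0.534 on the log2 scale, with an edgeR adjusted p of 0.0275. It lies on chromosome 10 from 115450311 to 115587780 and overlaps A930009A15Rik on the other strand, which ran from 1.05 to 9.36 CPM at P2 and from 12.5 to 38.0 CPM at P5. Whether the counting used strand is not given in the sources used here, so reads of the pair cannot be told apart. The same holds for Mgll and Gm26588, Kcnh1 and Hhat, and, among genes named below, for Cacna2d3, Sema5a, Ccdc175 and Mab21l1, each of which overlaps a counted gene on the other strand.

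Alk, a receptor tyrosine kinase of developing neurons on chromosome 17 (71868972 to 72604627), was at 15.3, 22.7, 9.29 and 18.4 CPM at P2 and at 72.3, 65.5, 83.9 and 94.6 CPM at P5. Its P5 values lay close together, and its log2 fold change of 2.27 ± 0.293 had an edgeR adjusted p of 0.0275. Kcnh1, a voltage-gated potassium channel on chromosome 1 (192190774 to 192510159), was at 4.85, 3.85, 2.56 and 6.45 CPM at P2 and at 57.6, 34.4, 20.8 and 38.9 CPM at P5. Kcnh1 rose by 3.10 ± 0.385 on the log2 scale (edgeR adjusted p = 0.0275) and again no P5 library reached down to the P2 range. Slc2a13, a proton-coupled myo-inositol transporter on chromosome 15 (91267696 to 91573261), was at 17.9, 21.3, 8.65 and 11.3 CPM at P2 and at 216, 149, 56.5 and 175 CPM at P5. Its log2 fold change was 3.33 ± 0.446 (edgeR adjusted p = 0.0283), with P5 control 3 the lowest of the P5 libraries. Nwd2, a gene of the NACHT and WD repeat family on chromosome 5 (63649102 to 63810546), was at 11.7, 12.9, 8.97 and 5.81 CPM at P2 and at 152, 85.7, 65.6 and 122 CPM at P5. It rose by 3.42 ± 0.355 on the log2 scale with an edgeR adjusted p of 0.0103. Nwd2 and Mgll were called in 5 of the 8 fits that leave out 1 library, Lgr5 and Kcnh1 in 3, and Alk and Slc2a13 in 2, with adjusted p up to 0.208 in the others. With cells thinned to 2000 UMIs Alk and Slc2a13 were not called (edgeR adjusted p = 0.0814 for each), nor was Alk with cells of at least 5 GFP UMIs (0.0688). All 7 called genes were also called in the authors' cluster 6 alone. Means at P2 and P5 in cluster 6 were 31.0 and 757 CPM for Lgr5 and 4.63 and 119 CPM for Mgll. In cluster 7, not tested, those of Lgr5 were 8.23 and 27.0 CPM and those of Mgll 2.21 and 8.30 CPM. Kcnh1 had means of 3.01 and 52.95 CPM in cluster 6 and 0.815 and 70.5 CPM in cluster 7. P5 controls 3 and 4, with 8 and 14 cells in cluster 7, were left out there.

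Idi1, the isopentenyl-diphosphate isomerase of the cholesterol pathway on chromosome 13 (8885501 to 8892451), was the gene that fell. It was at 30.4, 38.1, 47.1 and 64.5 CPM in P2 controls 1 to 4 and at 10.1, 4.20, 5.82 and 5.56 CPM in P5 controls 1 to 4. The log2 fold change was -2.71 ± 0.356 (edgeR adjusted p = 0.0275), and it was called in 2 of the 8 fits without 1 library, with adjusted p from 0.0193 to 0.159. It was not called with cells thinned to 2000 UMIs (edgeR adjusted p = 0.102), where 6 genes were called higher and 0 lower (750 genes at an unadjusted p under 0.05), or with cells of at least 5 GFP UMIs (edgeR adjusted p = 0.0688).

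The rule for naming genes takes the 10 rising and the 10 falling genes of lowest p, of which 13 were not called. In all 20 the P5 libraries lay on one side of the P2 libraries, which the choice by lowest p in the same comparison favours and which supports nothing further. Over all genes tested, 2.25 percent had every P5 library above and 1.58 percent every P5 library below the P2 libraries. Cacna2d3, an auxiliary subunit of voltage-gated calcium channels, had means of 113 CPM at P2 and 587 CPM at P5 (edgeR adjusted p = 0.0550). Sema5a, a transmembrane guidance protein that keeps neurites of inner retinal neurons in their layer, had means of 76.4 and 250 CPM (edgeR adjusted p = 0.0630). Sema3d, a secreted semaphorin, and AC165271.1 were the other 2 on the higher side, at 6.72 to 19.6 CPM and 16.2 to 29.4 CPM at P5. On the lower side Rnd3, a small GTPase that loosens the actin cytoskeleton of migrating neurons, was at 313, 327, 518 and 375 CPM at P2 and at 75.5, 107, 143 and 89.0 CPM at P5. Its groups were well apart, with a log2 fold change of -1.89 ± 0.305 and an edgeR adjusted p of 0.0630. The POU factor Pou3f3 had a mean of 24.2 CPM at P2 and was at 4.41, 0.840, 0 and 1.85 CPM at P5. Insm2, Nrgn, Ccdc175, Mab21l1, Dapl1 and Msmo1 had log2 fold changes from -3.24 to -1.44. BC049730 was at 0 UMIs in all 4 P5 libraries against a mean of 10.99 CPM at P2, which makes it at least 27.7-fold lower, at a floor of 3 counts over the P5 group. With the replicate block, 19 of these 20 genes were called, Msmo1 missing at an adjusted p of 0.0581.

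**Figure D1:**
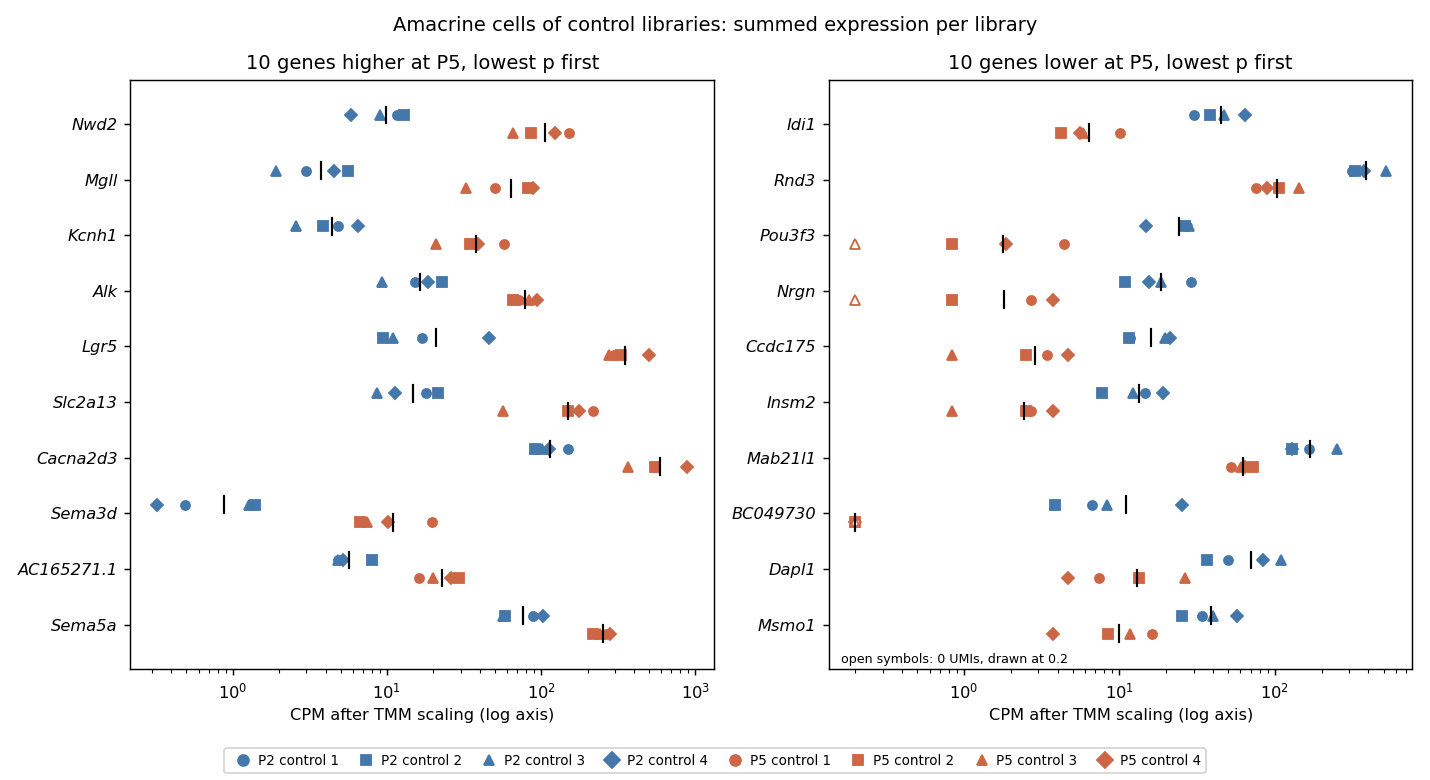
Summed expression in amacrine cells of each control library (CPM after TMM scaling, log axis) for the 10 genes of lowest p in each direction, with P2 in blue, P5 in red, 1 symbol per control number and a black bar at the group mean. The P5 symbols of every gene lie on one side of its P2 symbols, for example Lgr5 at 276 to 501 CPM against 9.44 to 45.8 CPM.

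The 12 MEIS libraries gave a second measurement of the age difference, over 4040 amacrine cells and 62 to 881 cells per library. With construct as a term, edgeR's quasi-likelihood test over 10639 genes called 100 higher and 56 lower at P5, which is 0.940 and 0.526 percent. Barcodes of 1 of them, P2 combination 2, begin with the name of a control, and grouping libraries by barcode start in place of title gave 9 calls in the control comparison. Of the 7 genes called in controls, 5 were called here too and in the same direction: Mgll, Lgr5, Slc2a13, Nwd2 and Alk. Mgll ran from 2.20 to 5.77 CPM over the 6 P2 libraries (median 2.67) and from 36.3 to 83.1 CPM over the 6 P5 libraries (median 66.3), with a log2 fold change of 4.31 and an adjusted p of 2.14e-05. Lgr5 ran from 3.31 to 47.6 CPM (median 11.6) at P2 and from 68.3 to 372 CPM (median 305) at P5, with 4.31 on the log2 scale and an adjusted p of 0.00459. Neither gene's age groups overlapped in the MEIS libraries. Kcnh1 overlapped between the ages there, at 2.92 to 43.3 CPM and 9.95 to 58.4 CPM (adjusted p = 0.553), and Idi1 had a log2 fold change of -1.17 (adjusted p = 0.146).

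Of the 151 genes called in controls with the block, 129 could be tested in the MEIS libraries, and all 129 had the same direction. Of them 53 were called there, which is 35.1 percent of the 151 and 33.97 percent of the 156 MEIS library calls. In both sets 48 of the 53 were higher at P5 and 5 lower. Without P2 MEIS2 2 the MEIS libraries gave 231 calls. In that fit 140 of the 151 could be tested, 139 had the same direction and 63 were called. The share of equal signs over all genes is not given here. The most abundant of the 48, named after their values were seen, include Zfp804a, a zinc finger gene, with means of 609 CPM at P2 and 1808.5 CPM at P5 in controls, and Rbfox1, a neuronal splicing factor, with 109 and 578 CPM. Calr, the calcium-binding chaperone calreticulin, was at 191 to 245 CPM at P2 and at 532, 678, 2388 and 1260.2 CPM in P5 controls 1 to 4, highest in controls 3 and 4. The 5 lower genes were Gad2, Insm2, Krt73, Mylk and Adamtsl1.

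**Figure D2:**
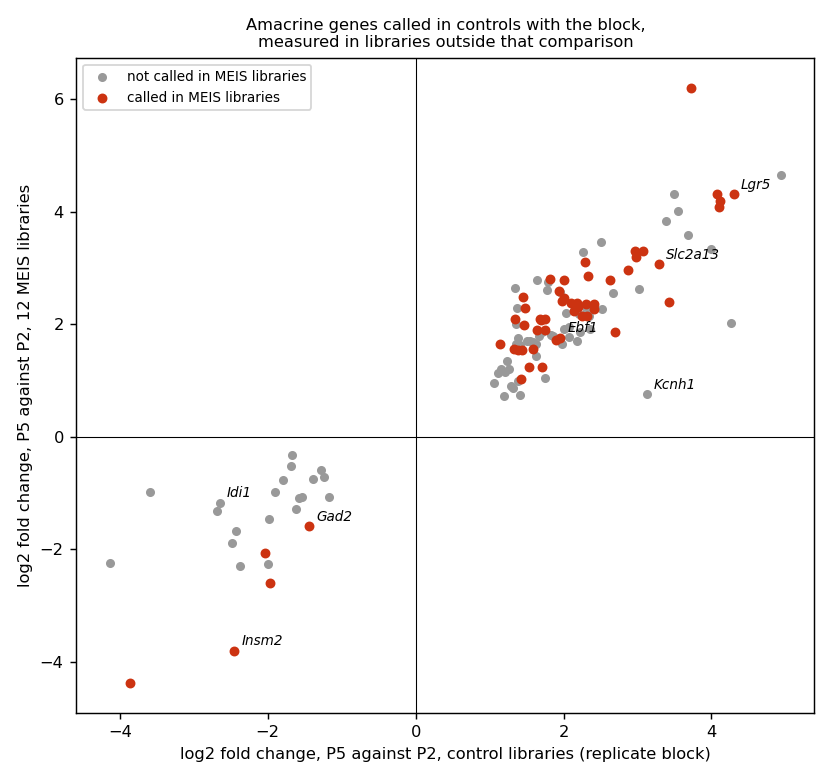
Log2 fold changes of P5 against P2 in amacrine cells, for genes called in control libraries with the replicate block (x axis) and the same genes in the 12 MEIS libraries (y axis), with genes called in the latter in red. All 129 genes lie in the 2 quadrants of equal sign, and 53 are red.

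Transcription factors of amacrine subtypes were a list of 34 genes, 30 of them tested. None was called in the 8 control libraries, and 3 were called higher and 0 lower with the block, against 1.04 and 0.248 percent of all genes: Nfix, Ebf1 and Ebf3. The list's median log2 fold change was 0.09, beside 0.01 for all genes tested. In MEIS libraries 3 of 27 members tested were called higher and 3 lower (Lhx9, Barhl2 and Bcl11a), against 0.940 and 0.526 percent of all genes, with a median of -0.45 beside -0.03. In cluster 6 alone 3 of 21 were called higher and 2 lower (Lhx9 and Meis2), against 1.34 and 0.393 percent. Nfix, a nuclear factor I family member used by late-born neurons and glia, stood at 31.2, 23.8, 15.7 and 60.7 CPM in P2 controls 1 to 4 and at 152, 489, 516 and 1587.5 CPM in P5 controls 1 to 4. P5 control 1 was the lowest of the P5 libraries and still above all P2 libraries. The log2 fold change was 4.38 ± 0.736 with an edgeR adjusted p of 0.0647, and 4.11 ± 0.480 with an adjusted p of 0.00546 with the block. In MEIS libraries Nfix ran from 19.5 to 95.2 CPM at P2 and from 182 to 947 CPM at P5, and was called (log2 fold change 4.18, edgeR adjusted p = 0.00263).

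Ebf1 and Ebf3, helix-loop-helix factors found in glycinergic amacrine cells, differed in the same direction. Ebf1 was at 152, 155, 181 and 287 CPM at P2 and at 851, 752, 549 and 790 CPM at P5, a log2 fold change of 1.92 ± 0.327 (edgeR adjusted p = 0.0647, and 0.0165 with the block). Ebf3 was at 67.9, 56.3, 58.6 and 97.1 CPM at P2 and at 295, 297, 125 and 510 CPM at P5, a log2 fold change of 2.13 ± 0.409 (edgeR adjusted p = 0.102, and 0.0134 with the block). Neither gene's groups overlapped, and both were called in MEIS libraries, with adjusted p of 0.0122 and 0.00262. Among cells of cluster 6 alone, the cluster with at least 50 cells in every control library, Nfix differed by 4.90, Ebf1 by 2.57 and Ebf3 by 2.65 on the log2 scale, and all 3 were called there (edgeR adjusted p of 0.00375, 0.0296 and 0.0153). In that cluster Ebf1 was at 177, 386, 236 and 333 CPM at P2 and at 3068, 1971, 651 and 1021 CPM at P5. In clusters 7, 9 and 13 the levels were not tested, and libraries with few cells of a cluster were left out of its means. These were P5 controls 3 and 4 for cluster 7, with 8 and 14 cells, and for cluster 9, with 6 and 3. For cluster 13 they were P5 controls 2 and 4, with 12 and 8 cells. All 4 P2 libraries were kept. The levels were low at both ages in clusters 7 and 9. Nfix had means of 5.55 and 5.50 CPM in cluster 7 and 6.58 and 3.85 CPM in cluster 9, and Ebf1 of 19.1 and 21.2 CPM and of 10.8 and 16.6 CPM. In cluster 13 the means at P2 and P5 were 65.2 and 639.5 CPM for Nfix, 316.5 and 581.5 CPM for Ebf1, and 104.5 and 127.6 CPM for Ebf3, whose ranges overlapped. Which genes the authors' clustering used is not given in the sources used here.

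RNA of Meis1 and Meis2, the factors named for the other constructs, was found in all 8 control libraries. By their labels these libraries received the GFP construct, but barcodes of P2 control 1 begin with the name of a combination library. RNA of the native genes and of a construct cannot be told apart in that library. Meis2, which marks a GABA-releasing subset, was at 1363, 2153, 1354 and 883 CPM at P2 and at 1379, 1292, 320 and 483 CPM at P5. Meis1 was at 763, 501, 433 and 261 CPM at P2 and at 514, 199, 157 and 147 CPM at P5. The age groups of both overlapped and neither was called (edgeR adjusted p of 0.730 and 0.705). Within each same-numbered pair Meis1 was lower at P5, though the labels state no pairing. Within cluster 6 Meis2 was lower at P5 by -1.95 on the log2 scale (edgeR adjusted p = 0.0155), from a mean of 468 CPM at P2. The clusters richer in Meis2 were not tested: its means at P2 and P5 were 2797 and 2088 CPM in cluster 7 and 3098 and 2076 CPM in cluster 9. The P5 means of both clusters rest on P5 controls 1 and 2 only. P5 controls 3 and 4 were left out, with 8 and 14 cells in cluster 7 and 6 and 3 in cluster 9. The GFP transcript was at 32110, 3481, 13267 and 20839 CPM at P2 and at 1560.5, 1623.5, 4952 and 2327 CPM at P5, with overlap and an adjusted p of 0.364.

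Few transmitter genes were called. Of 7 GABA genes, 0 were called in the 8 libraries and 1, Gad2, was called lower with the block, against 0.248 percent of all genes. Gad2, which makes GABA at synaptic terminals, stood at 590, 334, 544 and 459 CPM at P2 and at 154, 113, 223 and 234 CPM at P5. The highest P5 library was under the lowest P2 library. The log2 fold change was -1.41 ± 0.329 with an edgeR adjusted p of 0.197, and -1.44 ± 0.268 with an adjusted p of 0.0353 with the block. The MEIS libraries ran from 438 to 1279 CPM at P2 and from 196 to 442 CPM at P5, and Gad2 was called lower there (log2 fold change -1.59, adjusted p = 0.0329). Gad1, the other GABA-making enzyme, was at 35.8, 88.5, 14.4 and 13.6 CPM at P2 and at 156, 117, 16.6 and 30.6 CPM at P5. It was higher in controls 1 and 2 than in 3 and 4 at both ages, and was not called (log2 fold change 1.10, edgeR adjusted p = 0.721). Slc32a1, Abat and Aldh5a1 had log2 fold changes of 0.41, 0.41 and 0.61, none called.

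After each cell was thinned to 2000 UMIs, with 730 shallower cells left out, 63.6, 54.7, 55.2 and 55.6 percent of amacrine cells had a Gad1 or Gad2 UMI in P2 controls 1 to 4, and 43.2, 32.9, 38.9 and 32.6 percent in P5 controls 1 to 4. The ages did not overlap. The means were 57.3 ± 4.23 percent and 36.9 ± 5.11 percent (SD, n = 4), and the two-sided exact permutation test gave p = 0.0286, the smallest that 70 splits allow, and 0.0571 after adjustment over 3 shares. In rods, which should lack both genes, the means were 4.22 and 1.63 percent. Without thinning the difference was -19.5 percentage points (exact permutation p = 0.0571). The split by gene shows that cells with a Gad2 UMI were 52.4 ± 6.14 percent at P2 and 25.8 ± 7.40 percent at P5, and those with a Gad1 UMI 7.43 ± 6.15 and 14.3 ± 9.43 percent.

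Of the 6 glycine genes, 0 were called in the 8 libraries and 1, Glrb, the anchoring subunit of glycine receptors, was called higher with the block (log2 fold change 1.96, adjusted p = 0.0255), against 1.04 percent of all genes. Slc6a9, the glycine transporter GlyT1 of glycinergic amacrine cells, was at 20.8, 29.4, 23.1 and 80.3 CPM at P2 and at 85.6, 64.7, 75.6 and 100 CPM at P5. P2 control 4 lay inside the P5 range, and the log2 fold change of 1.10 ± 0.422 had an edgeR adjusted p of 0.597. By control number, a pairing that the labels do not state, the P5 level was the higher one in each of the 4 pairs. Across numbers, P2 control 4 at 80.3 CPM lay above P5 controls 2 and 3 at 64.7 and 75.6 CPM. With the control number as a block the log2 fold change was 1.31 ± 0.298 (edgeR adjusted p = 0.0727). Cells with a Slc6a9 UMI after thinning were 6.34 ± 4.62 percent at P2 and 15.2 ± 5.92 percent at P5 (exact permutation p = 0.0571). The difference of 8.83 points was 3.61 points after thinning to 1000 UMIs and 15.2 points without thinning (exact permutation p of 0.0857 and 0.2). By library the P2 shares were 3.75, 5.10, 3.33 and 13.2 percent, beside 6.52, 7.35, 5.93 and 5.22 percent in rods, so P2 controls 1 to 3 lay below their rods and P2 control 4 above. The P5 shares were 13.6, 9.09, 14.8 and 23.3 percent, beside 9.62, 10.7, 8.07 and 12.5 percent in rods, so P5 control 2 lay below its rods and the other 3 above. Within each of the 4 same-numbered pairs, a pairing that the labels do not state, the P5 share was the higher one. Across numbers, P2 control 4 at 13.2 percent lay above P5 control 2 at 9.09 percent. Peptide genes were mostly under the filter: 3 of 17 in the table could be tested, Npy, Tac1 and Cartpt, and none was called.

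**Figure D3:**
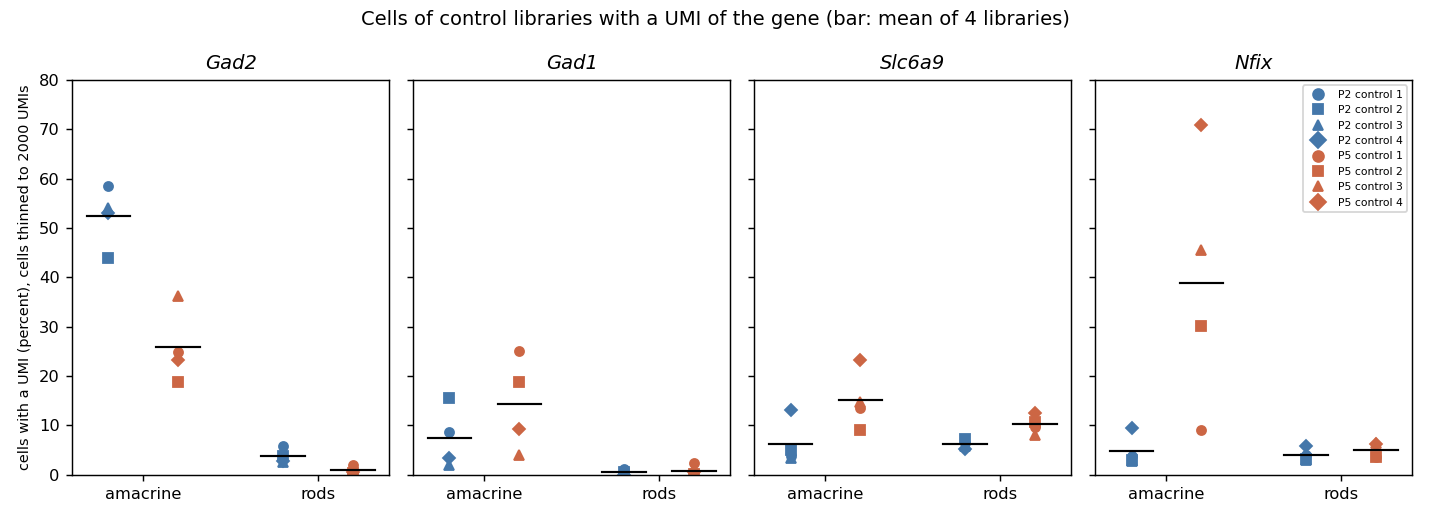
Percent of cells with a UMI of Gad2, Gad1, Slc6a9 or Nfix in each control library after thinning to 2000 UMIs per cell, in amacrine cells and in rods, with P2 in blue, P5 in red and a bar at the mean of 4 libraries. The Gad2 share of amacrine cells lies at 43.9 to 58.6 percent at P2 and at 18.9 to 36.2 percent at P5, while the rods stay under 6 percent.

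Genes for neuronal signalling mostly had positive fold changes, with few calls. None of the members tested was called in the 8 libraries for presynaptic genes (31 tested), transmitter receptors (38), voltage-gated channels (36) or lamination and adhesion (54). The channel list does not hold Kcnh1, which was called. With the block, 0 presynaptic genes, 8 receptors, 7 channels and 8 adhesion genes were called higher and none lower, against 1.04 percent of all genes called higher. The median log2 fold changes of the 4 lists were 0.50, 0.93, 0.98 and 0.49, beside 0.01 for all genes tested, and 30, 34, 32 and 44 of their members had a positive value. In controls 3 and 4 alone the medians were 0.35, 0.83, 0.76 and 0.06. The receptor, channel and adhesion lists also had higher sums in controls 1 and 2 than in 3 and 4 within each age: the 45 receptor genes together were at 5723, 5795, 2512 and 2396 CPM in P2 controls 1 to 4 and at 10890, 8086, 2921 and 6448 CPM in P5 controls 1 to 4.

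Among the channels, Kcnip4, a potassium channel interacting protein, was at 40.5, 123, 29.5 and 23.2 CPM at P2 and at 937, 1063, 172 and 231 CPM at P5. All P5 libraries were above all P2 libraries, with the P5 controls 3 and 4 nearest to them, and the log2 fold change with the block was 3.38 ± 0.366 (adjusted p = 0.00358). Kcnd3, Kcnc1 and Kcna2, subunits of fast potassium channels, had log2 fold changes of 1.65, 1.34 and 1.48 with the block, with adjusted p of 0.0209, 0.0277 and 0.0339. All 3 were called in MEIS libraries as well. The calcium channel genes Cacna2d3, Cacna2d2 and Cacna1c made up the rest of the 7.

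Receptors called with the block included Grin1, Grin2a, Gabra3, Gabrb2, Gabrg3, Gabbr2 and Glrb. In MEIS libraries 1 of 33 receptors tested, 2 of 28 presynaptic genes, 4 of 35 channels and 5 of 52 adhesion genes were called higher and 0 of any of these lists lower, against 0.940 and 0.526 percent of all genes. Gabbr2, a subunit of the metabotropic GABA receptor, was at 66.1, 97.2, 36.5 and 63.6 CPM at P2 and at 225, 141, 120 and 155 CPM at P5, without overlap, and was the receptor called in MEIS libraries (log2 fold change 1.57, adjusted p = 0.00381). Gabrg3, a subunit of the GABA-A receptor, was at 14.9, 37.4, 3.84 and 6.13 CPM at P2 and at 173, 112, 16.6 and 21.3 CPM at P5. Its P5 controls 3 and 4 lay inside the P2 range, and it was not called in MEIS libraries (adjusted p = 0.454). Grin1, the obligate subunit of NMDA receptors, had means of 12.3 and 50.3 CPM, and P5 control 3 at 8.31 CPM lay inside its P2 range.

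Adhesion genes called with the block were Sema5a, Megf11, Dscaml1, Sdk1, Cntnap4, Cdh8, Unc5d and Lrrtm3. Megf11, which spaces amacrine and horizontal cells of a type, was at 2.98, 9.79, 2.24 and 0.968 CPM at P2 and at 37.3, 63.0, 42.4 and 158 CPM at P5. Its groups did not overlap, its log2 fold change with the block was 4.11 ± 0.551 (adjusted p = 0.00979), and it was called in MEIS libraries (adjusted p = 0.0270). Sdk1, a sidekick protein that matches synaptic partners in sublayers, was at 120, 159, 23.1 and 30.7 CPM at P2 and at 575, 811, 52.3 and 274 CPM at P5. P5 control 3 lay inside the P2 range, and the log2 fold change with the block was 2.26 ± 0.334 (adjusted p = 0.0153).

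**Figure D4:**
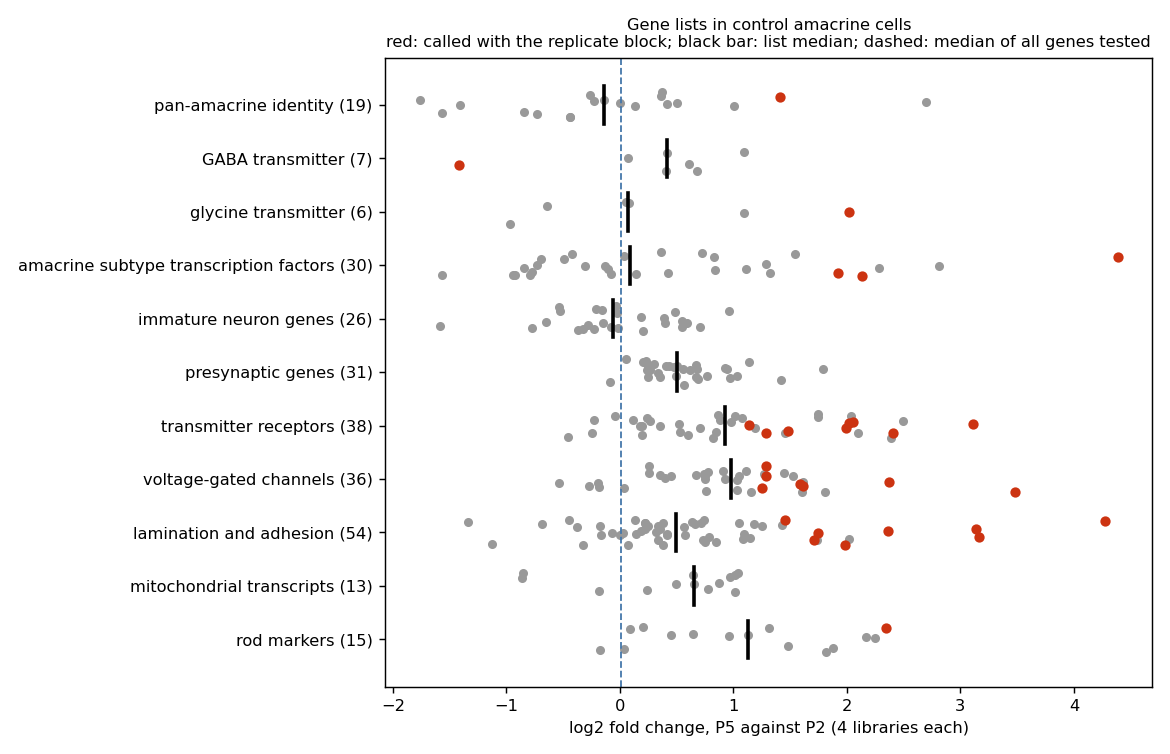
Log2 fold change of P5 against P2 in control amacrine cells for each tested member of 11 gene lists (points, with the number tested beside each name), with members called with the replicate block in red, the list median as a black bar and the median of all genes as a dashed line. The medians of receptors and channels lie at 0.93 and 0.98, and those of pan-amacrine and immature neuron genes at -0.14 and -0.06.

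Genes of amacrine identity and of immature neurons had medians of -0.14 and -0.06, which differed between the pairs of controls. In controls 1 and 2 alone the medians were -0.42 and -0.31, beside -0.04 for all genes tested. In controls 3 and 4 alone they were 0.00440 and 0.23, beside -0.00483 for all genes tested. The amacrine identity median was thus near that of all genes in controls 3 and 4. Of 19 pan-amacrine genes tested, 0 were called in the 8 libraries, 1 was called higher with the block (C1ql2), against 1.04 percent of all genes, and the median was -0.14. In MEIS libraries 0 of 19 tested were called higher and 3 lower, against 0.526 percent of all genes lower. In cluster 6 alone 0 of 17 were called higher and 4 lower, against 0.393 percent lower. The summed level of the list ran from 5418 to 6055 CPM at P2 and from 3742 to 5002 CPM at P5, without overlap. Tfap2a was at 347, 265, 311 and 199 CPM at P2 and at 105, 167, 50.7 and 99.2 CPM at P5. Every P5 library was under every P2 library, the log2 fold change was -1.41 ± 0.362, and the edgeR adjusted p was 0.258, or 0.0688 with the block. It was called lower in MEIS libraries (log2 fold change -2.16, adjusted p = 0.00262). Lhx9 was at 155, 78.0, 107 and 51.0 CPM at P2 and at 42.9, 51.2, 9.97 and 26.9 CPM at P5, and was called lower in MEIS libraries (log2 fold change -2.67, adjusted p = 0.00262) but not in controls (edgeR adjusted p = 0.374). Bhlhe22 had the opposite sign, with 40.1 ± 3.67 CPM at P2 and 81.2 ± 23.4 CPM at P5 without overlap (edgeR adjusted p = 0.263). Of 26 immature neuron genes such as Dcx, Stmn2 and Tubb3, 0 were called in the 8 libraries or with the block, and their median was -0.06.

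Markers of other cells varied by library. The rod markers, 15 of 18 tested, had a median log2 fold change of 1.13, with 0 called in the 8 libraries and 1, Pde6b, higher with the block, against 1.04 percent of all genes. The part of rod RNA in the results was not tested. Summed neurogenic markers, which newly postmitotic cells carry, were at 485, 352, 2357 and 728 CPM in P5 controls 1 to 4 and at 976, 622, 1065 and 2545 CPM in P2 controls 1 to 4, so P5 control 3 and P2 control 4 were the high ones. With the block 1 of 13 neurogenic and 1 of 12 progenitor markers tested, Neurog2 and Hes5, were called lower and 0 higher, against 0.248 percent of all genes lower (log2 fold changes of -2.38 and -2.43, adjusted p of 0.0406 and 0.0349). Of 7 bipolar markers tested, 2 were called higher with the block, against 1.04 percent of all genes. That list holds Car10, whose means at P2 and P5 were 17.5 and 289 CPM in amacrine cluster 7 and 9.02 and 171.6 CPM in cluster 9. The P5 means there rest on 2 libraries. Whether the calls are RNA of bipolar cells was not tested. Cone (5 tested), Muller glia (8), ganglion (2) and horizontal (4) lists had 0 calls in the 8 libraries and 0 with the block. The same held for cell cycle (3), apoptosis (11), immediate early (13) and glycolysis (21) lists. Mitochondrial transcripts had 0 of 13 in both, and chloride transporter genes had 0 of 6. Over all genes the 8 libraries gave 0.0514 percent higher and 0.00856 percent lower, and the block 1.04 and 0.248 percent. At these shares 0 calls among so few genes do not show a lack of change.

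The change with age in amacrine cells was set against that in rods of the same libraries by an interaction test. Over 14049 genes, edgeR's quasi-likelihood test called 213 genes with a higher and 145 with a lower change in amacrine cells, 1.52 and 1.03 percent. Leaving out 1 library moved the total between 97, without P2 control 3, and 935, without P5 control 1. Among genes whose average log2 CPM was 5 or more, Lgr5 differed most, by 5.03 ± 0.343 on the log2 scale (adjusted p = 0.000204), with rods at means of 29.0 CPM at P2 and 16.3 CPM at P5. Nfix followed with a difference of 3.86 ± 0.507 (adjusted p = 0.00460), and its rod means were 22.9 and 26.2 CPM. Mfap4, Rbfox3 and Kcnc2 were next with differences of 3.49, 3.38 and 3.33, and each of the 3 fell in rods (log2 fold changes of -2.57, -1.20 and -2.48, adjusted p of 0.0405, 0.0220 and 0.00376). Rods with a Gad2 UMI after thinning had means of 3.75 percent at P2 and 0.875 percent at P5. The part of amacrine RNA in the rod values was not tested. In the other direction stood Dlg2, Rapgef5, Hk1, Unc5c and Pcsk2, with differences from -2.68 to -3.00. Hk1, hexokinase 1 of glycolysis, was at 34.1 and 40.9 CPM in amacrine cells and at 10.2 and 86.7 CPM in rods. None of these 5 was called in amacrine cells, and all 5 rose in rods, where 6.02 percent of genes rose and 4.81 percent fell. Of the 20 named genes, Mgll, Kcnh1, Alk, Slc2a13 and Mab21l1 were also called in this test besides Lgr5.

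**Figure D5:**
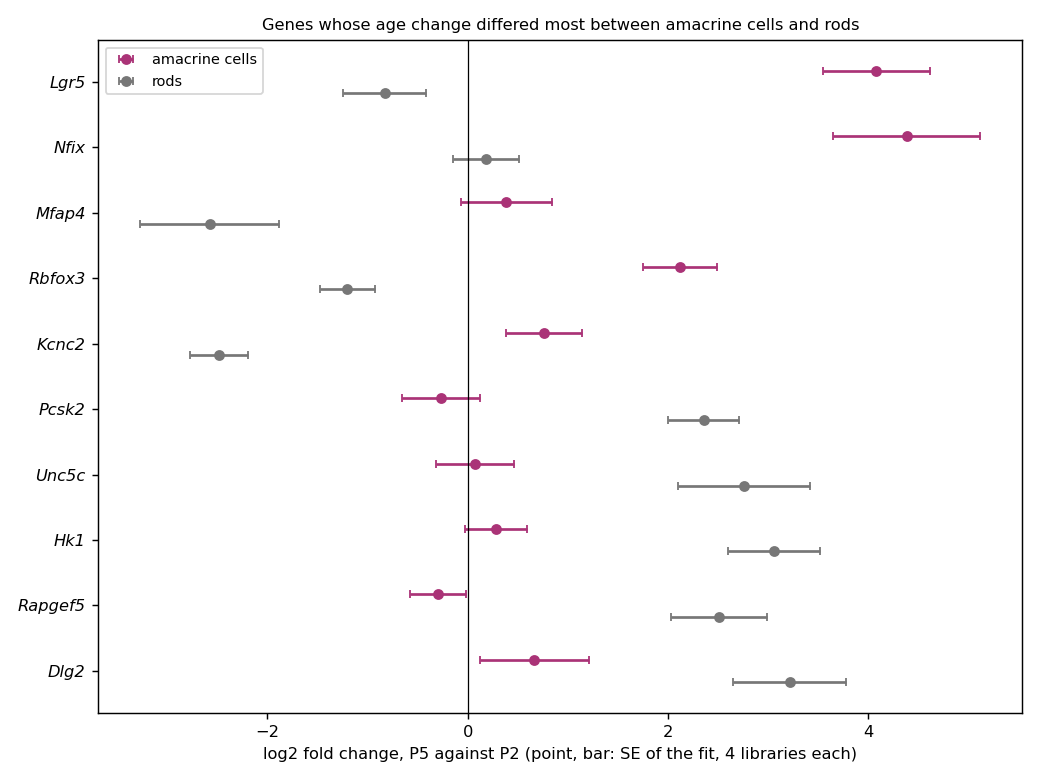
Log2 fold change of P5 against P2 in amacrine cells and in rods of the same control libraries, with SE of the fit as bars, for the 5 genes in each direction with the largest called difference among those whose average log2 CPM was 5 or more. Lgr5 and Nfix are at 4.08 and 4.38 in amacrine cells, and Dlg2 and Hk1 are at 3.21 and 3.06 in rods.

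Against progenitors of the same libraries, 147 genes had a higher and 216 a lower change in amacrine cells, 1.08 and 1.59 percent of 13600 tested. Without single libraries the total ran from 56, without P2 control 3, to 1669, without P5 control 3. Without Scrublet doublets 69 were higher and 87 lower, with DESeq2 435 and 445, and without TMM factors 145 and 135. Scrt2, Lrfn5, Lgr5, Neurod2 and Myt1 led the higher genes, though Scrt2 was at a mean of 2.44 CPM in progenitors at P2 and at 0 at P5. Lrfn5, a synaptic adhesion protein, was at 13.6, 15, 4.80 and 2.58 CPM in amacrine cells at P2 and at 336, 711, 47.4 and 198 CPM at P5, with means under 1 CPM in progenitors at both ages. Its difference was 5.31 ± 0.448 (edgeR adjusted p = 0.00251), and the amacrine change alone had an adjusted p of 0.0630, or 0.00110 with the block. Adamtsl1, Tril, S100a16, Rgs6 and Gpr37 led the lower genes. Adamtsl1, a secreted matrix protein, had means of 12.3 and 410 CPM in progenitors and 132 and 41.7 CPM in amacrine cells, a difference of -7.01 ± 0.688 (edgeR adjusted p = 0.00251). Slc2a13, Nwd2, Cacna2d3 and Sema3d were among the named genes called higher in this test, and Idi1, Rnd3, Mab21l1, Dapl1 and Msmo1 among those called lower.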

How the data were processed

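The authors deposited 1 table of raw UMI counts for 23260 genes and a table with the library, treatment, cluster and cell type of each cell, its deposited UMI count and its deposited percent of mitochondrial UMIs. Cell Ranger, Seurat 5 and mm10 are named per the submitters' processing notes, and a GFP locus was added to the genome per the series design text. Cell filters, strand setting and doublet removal are not given in the sources used here. The recomputed mitochondrial percent matched the deposited one within 0.01 in 79009 of 79009 cells.

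Counts were summed per library over amacrine cells, rods or progenitors. Sums were filtered with filterByExpr, scaled with TMM factors and tested with edgeR 4.0.16 (quasi-likelihood, R 4.3.3), with Benjamini-Hochberg adjustment over all genes tested. Interaction tests kept library as a block. The rest used DESeq2 1.42.0, scipy 1.17.1 for exact permutation tests and scanpy 1.11.5 for Scrublet. CPM values use TMM-scaled totals, except those by cluster, which use unscaled totals. The members and gene lists were chosen with earlier results of these data known, and list members were picked for description after their values were seen. Named genes were the 10 rising and 10 falling of lowest p, and in each interaction test the 5 called genes in each direction with the largest difference at a mean log2 CPM of at least 5.

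No pairing of libraries is stated. For same-numbered controls 1 to 4, deviations from the age means correlated at 0.408, 0.442, 0.429 and 0.123. P2 control 2 with P5 control 1 reached 0.583, P2 control 4 with P5 control 3 reached 0.509 and P2 control 3 with P5 control 4 reached 0.237. The block is thus an alternative, and its values are given beside the results they change. Scrublet (exact neighbours) marked 8 cells in P2 control 2 and 3 in P5 control 1, 0.170 and 0.0477 percent, so it is taken not to have worked there, and doublets stayed in. Among amacrine cells Scrublet marked 17.1, 0.498, 14.1 and 5.74 percent in P2 controls 1 to 4. In P5 controls 1 to 4 it marked 0.346, 0, 5.16 and 4.55 percent of them. The test was also run on simulated counts for P5 against P2, over 11818 genes at a dispersion of 0.05 and 11713 at 0.3. The changed genes, 100 for each size of change, were drawn from the more abundant genes only. At a dispersion of 0.05 the test called 71 percent of those changed by 1 on the log2 scale and 100 percent of those changed by 2. At a dispersion of 0.3 it called 0 and 30 percent. Genes of low counts were not among the changed ones, so these rates do not cover them. The data had a common dispersion of 0.154.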

Additional observations from a re-analysis of the deposited data

Results flagged for a closer look

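In 60 groups of 4 libraries, 6 held a value far from the other 3, where chance flags about 1 in 20. These were AC165271.1 at 8.04 CPM in P2 control 2, Pou3f3 at 14.8 CPM and Slc6a9 at 80.3 CPM in P2 control 4, the share of cells with a Gad1 or Gad2 UMI at 63.6 percent in P2 control 1, and, in P5 control 1, an amacrine share of 13.8 percent and a mitochondrial share of 14.6 percent.

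The age change of several named genes differed between amacrine cells and another cell type of the same libraries, by edgeR's interaction test. Less that in rods, the change was larger for Mgll by 3.23 (adjusted p = 0.0321), Kcnh1 by 3.33 (adjusted p = 0.00976), Alk by 1.76 (adjusted p = 0.0170), Lgr5 by 5.03 (adjusted p = 0.000204) and Slc2a13 by 2.73 (adjusted p = 0.00906) on the log2 scale, and for Mab21l1 it was -1.95 (adjusted p = 0.000976). Less that in progenitors, the values were 2.69 for Nwd2, 5.17 for Lgr5, 2.65 for Slc2a13, 2.38 for Cacna2d3 and 3.73 for Sema3d. On the lower side they were -1.83 for Idi1, -1.44 for Rnd3, -1.52 for Mab21l1, -3.42 for Dapl1 and -1.74 for Msmo1, with adjusted p over these 10 from 0.00251 to 0.0284.

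The MEIS libraries, which the control comparison does not use, gave 156 genes called between the ages.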

How the results depend on the processing

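Of the alternatives run, none turned the sign of a named gene's fold change: over the named genes 282 alternative values kept their side of the threshold, 97 passed it and 46 no longer did. The 7 genes called in amacrine cells became 173 with DESeq2, 38 without a filter on low counts, 151 with the replicate block, 52 with all 20 libraries in the fit and 30 with cells under 10 percent mitochondrial UMIs. Settings chosen after seeing the data gave 198 with the pair of controls as a term, 328 with controls 1 and 2, 0 with controls 3 and 4, 50 with cells of at least 5 GFP UMIs and 150 with cluster 6. Leaving out 1 library gave 0 to 121. The 358 genes of the test against rods became 876 with DESeq2, 640 without the filter and 97 to 935 without 1 library. The 363 against progenitors became 880 with DESeq2, 552 without the filter, 156 without Scrublet doublets and 56 to 1669 without 1 library. Its split of 147 higher and 216 lower became 145 and 135 without TMM factors, 97 and 82 without P2 control 2 and 148 and 146 without P2 control 4, and the split against rods became 467 and 468 without P5 control 1. For the Gad1 or Gad2 share, the difference was -19.5 points without thinning (exact permutation p = 0.0571) and -22.5 to -18.3 without 1 library, where 0.0571 is the smallest p possible. The cause of these shifts was not tested. P5 control 4 has 88 amacrine cells, so a gene under 0.927 CPM is under 1 UMI there.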

Other observations

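Genes of cholesterol synthesis, a list of 23 drawn up after Idi1 and Msmo1 were seen to be low, were mostly lower at P5. Of the 23, all tested, 20 had a negative log2 fold change, 10 had every P5 library under every P2 library (1.58 percent of all genes tested), and the median was -0.63 beside 0.01 for all genes. Their summed level ran from 670 to 831 CPM at P2 and from 353 to 501 CPM at P5. With edgeR, 1 was called lower (Idi1) in the 8 libraries (0.00856 percent of all genes), also 1 with the replicate block (0.248 percent), and 0 of 22 in MEIS libraries, where the median was -0.44. Since the list was chosen from these values, its direction is no independent result.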
